A study of Gossypium hirsutum with 9 samples.

Results

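Of 29183 cotton probes, 63 gave the higher signal in one cotton line on the day before anthesis and in the other line on the day after it. They were chosen on the authors' own log2 ratios of XinWX over XinFLM, in which a value above 0 means a higher signal in XinWX. A probe was taken when its mean over 3 arrays favoured one line by at least 0.7 at -1 days post anthesis (DPA) and the other line by at least 0.7 at 1 DPA. Its spot also had to reach 400 units above background in at least 1 channel on all 9 arrays, which 18150 probes did. A probe with a mean of -1 or less at 1 DPA further needed a mean above -1 at 0 DPA, but this condition removed no probe, and the 18 probes that the study names with a gene were left out. XinWX was the higher line at -1 DPA for 35 of the 63 probes and XinFLM for 28. The ratios at -1 and 1 DPA, and their difference, are therefore given as descriptions with no test.

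RNA came from ovules of the lintless-fuzzless mutant XinWX and of the linted-fuzzless mutant XinFLM, both of Upland cotton, at -1, 0 and 1 DPA. XinFLM is a dominant mutant isolated from XinWX, and by the study's genetics the lines differ at 1 locus for lint, so that all samples share the fuzzless background. Each of the 9 cDNA arrays, 3 per stage, held both lines of 1 stage in different dyes, and the array of replicate 2 had the dyes interchanged. The sample labels give 3 replicates per stage, whereas 2 biological replicates plus a dye swap are described in the methods, so that the spread over arrays, and each p-value that rests on it, may be partly technical.

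Cotton fibers are single cells that grow out of the outer epidermis of the ovule, and the first of them, which become lint, start to bulge around the day of anthesis. XinFLM ovules make these cells and XinWX ovules do not, and fuzz, the short fibers that start later, is formed by neither line. RNA was taken from whole ovules, in which a lower signal from fewer cells of a type and one from less RNA per cell cannot be told apart. The tables used here do not pair the probes with genes, so that each probe is named by its identifier, no function can be given, and the ovule origin could not be checked with marker genes.

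The median intensity above background per line and array ranged from 694 to 1664 units, and replicate 3 of 1 DPA held both ends of this range, XinFLM with 694 and XinWX with 1664 units. Replicate 3 stood apart from the other replicates. Over the bright probes, which are not independent of each other, replicates 1 and 2 had a correlation of their ratios of r = 0.91 at -1 DPA, 0.84 at 0 DPA and 0.80 at 1 DPA, while for replicates 1 and 3 r was 0.65, 0.50 and 0.60. With 3 arrays per stage, their number sets the precision.

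The switch was carried by different probes to different degrees. In the group that went from XinWX to XinFLM, the means at -1 DPA ran from 0.71 to 2.19 (median 1.10) and those at 1 DPA from -2.0 to -0.72 (median -1.11). In the opposite group, the means ran from -1.80 to -0.71 (median -1.03) at -1 DPA and from 0.71 to 1.79 (median 1.12) at 1 DPA. With a limit of 1 in place of 0.7 at both stages, 27 probes remained, 16 of the first group and 11 of the second. The plot of ratios by array shows the crossing of 0 between -1 and 1 DPA, which the rule set for each probe's means but not for each array.

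**Figure D1:**
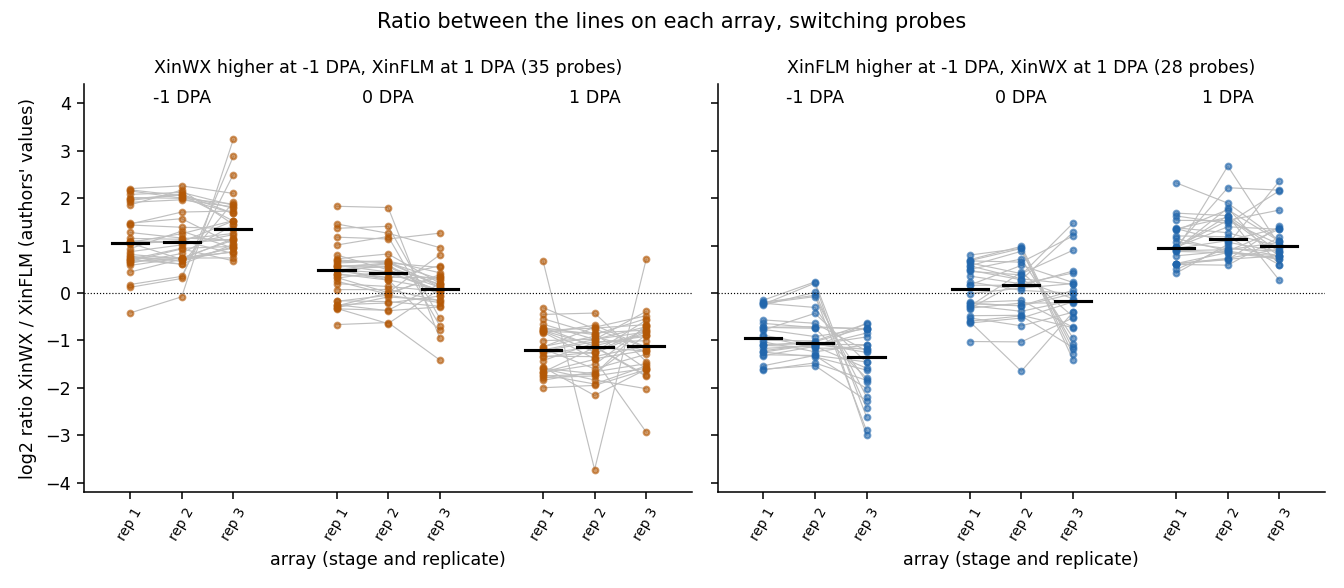
Log2 ratio of XinWX over XinFLM (y axis, authors' values) on each of the 9 arrays (x axis, by stage and replicate) for the 35 probes that went from XinWX to XinFLM (left) and the 28 that went the other way (right). Points are probes, thin lines join a probe's values within a stage and bars mark the median. By selection, the mean of each probe at -1 DPA and that at 1 DPA lie on opposite sides of 0. In 58 of the 63 probes all arrays of these stages have the sign of their mean. The values at 0 DPA lie on both sides.

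At the edge of the selection, the probe nearest to the limit in the first group was 28K_209_F12, with means of 0.71 and -0.78 at -1 and 1 DPA. The probe nearest to it from the outside was 28K_017_B07, with 1.12 and -0.70 after rounding. In the second group the probes on either side of the limit were 28K_009_D08, with -0.89 and 0.71, and 28K_237_G08, with -0.74 and 0.70 after rounding. Probes on either side of the limit were thus nearly alike in the smaller of their means, as follows from taking the nearest, but not in the other mean. The border of the set is that of the rule.

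A block of 11 probes that went from XinWX to XinFLM was defined by means of at least 1.2 on both sides. This border was chosen after the values were seen. Ranked by the smaller of these means, the first was 28K_231_H02, with ratios of 2.08, 2.12 and 1.85 on the 3 arrays of -1 DPA, 0.70, 0.63 and 0.54 at 0 DPA, and -2.0, -1.95 and -1.62 at 1 DPA. All 3 arrays favoured XinWX at the first 2 stages and XinFLM at the last, with no overlap between any of the stages. Its means were 2.02 ± 0.15, 0.62 ± 0.08 and -1.86 ± 0.21 (SD, n = 3 arrays).

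The next was 28K_060_F04, with ratios of 2.01, 2.00 and 1.68 at -1 DPA, 0.49, 0.56 and 0.00 at 0 DPA, and -1.60, -1.83 and -2.02 at 1 DPA. Here replicate 3 of 0 DPA alone had a ratio near 0. Over the 11 probes, the means lay between 1.36 and 2.19 at -1 DPA, between 0.32 and 0.62 at 0 DPA and between -1.86 and -1.26 at 1 DPA. The single arrays gave 1.03 to 2.26, 0.00 to 0.82 and -2.16 to -0.71 at these stages, so that within the block the values of neighbouring stages did not overlap. This separation follows in part from the border of 1.2 and is a description.

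Among the 28 probes that went from XinFLM to XinWX, the 2 ranked first by the smaller of their means at -1 and 1 DPA were 28K_213_G04 and 28K_296_F10. The first had ratios of -1.25, -1.35 and -1.63 at -1 DPA, 0.45, 0.38 and 1.47 at 0 DPA, and 1.63, 1.47 and 2.16 at 1 DPA. It had thus already changed sides on every array of 0 DPA, with replicate 3 as high as the lowest array of 1 DPA. The second had ratios of -1.54, -1.32 and -1.45 at -1 DPA, -0.01, 0.10 and 0.20 at 0 DPA, and 1.69, 1.63 and 0.87 at 1 DPA. At 0 DPA it was near 0 on all 3 arrays, between the values of the other stages. The lowest mean at -1 DPA in this group, -1.80 ± 0.41 (SD, n = 3 arrays), was that of 28K_016_C07, which is named here after its values were seen.

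Brightness gave another choice of members. In the first group the brightest spot was that of 28K_152_B09, which reached 54055 units above background and had ratios of 1.15, 1.13 and 1.26 at -1 DPA, -0.16, -0.18 and -0.28 at 0 DPA, and -1.14, -0.72 and -0.48 at 1 DPA. XinFLM was thus slightly the higher line on each array of 0 DPA. The next, 28K_163_H12, had ratios of 1.10, 1.08 and 1.52 at -1 DPA, -0.31, -0.08 and -0.15 at 0 DPA, and -0.80, -1.24 and -0.78 at 1 DPA, the same order of stages without overlap. The brightest 2 of the second group, 28K_251_C05 and 28K_163_E09, had arrays that disagreed and are described with replicate 3.

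The ratio at 0 DPA asks which line was ahead at anthesis itself. For 60 of the 63 probes the mean at 0 DPA lay between those of -1 and 1 DPA, and for 45 it lay within 0.5 of 0. The rule requires opposite signs at -1 and 1 DPA, and ratios at 0 DPA were small over all bright probes (median size 0.16). Both counts thus largely follow from the selection and this scale, and are descriptions. In the first group 25 means at 0 DPA were above 0 and 10 below, and 25 of the 35 were closer to the value of -1 DPA. In the second group 15 were above 0 and 13 below, and 13 of the 28 were closer to the value of -1 DPA. The median size of the ratio at 0 DPA was 0.35 over the 63 members and 0.16 over all bright probes, against 1.06 and 1.11 for the members at -1 and 1 DPA.

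For 41 members the selection did not use the 0 DPA value, and these were tested with limma, in a fit over all probes. A probe passed with a difference of 2-fold or more and a false discovery rate (FDR) below 0.05. The other 22, all of the first group, had a mean of -1 or less at 1 DPA and were not tested. Only 1 of the 41 passed, against 1.48% of the 22654 probes tested, or 0.446% in favour of XinWX. This was 28K_085_E05, with scanner ratios of 1.41, 1.23 and 0.92 on the 3 arrays of 0 DPA, all in favour of XinWX and all above its 3 authors' ratios of -1 DPA (0.73, 0.74 and 0.86). Its signal was 2.28-fold higher in XinWX (log2 1.19, standard error 0.15, adjusted p = 0.000142 in limma), and it passed in all 21 alternative settings tried, with log2 ratios from 1.07 to 1.48. By 1 DPA its authors' ratios favoured XinFLM, at -0.31, -0.76 and -1.15. Its place in the set was less stable than this call. The selection was not met on the recomputed scanner ratios, without replicate 3 of 1 DPA, or on replicates 1 and 2 alone.

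By FDR alone, 8 of the 41 passed, against 7.93% of all probes tested, 4 higher in XinWX and 4 in XinFLM. Those higher in XinFLM all belonged to the second group and so had not yet changed sides at anthesis. They were 28K_122_B10 (log2 -0.75, standard error 0.19, adjusted p = 0.0215 in limma), 28K_116_E10 (log2 -0.50), and 28K_257_G02 and 28K_045_E05 (log2 -0.84 and -0.74), the last 2 named after their values were seen. Of those higher in XinWX, 28K_213_G04 (log2 0.76, standard error 0.19, adjusted p = 0.0229 in limma) and 28K_250_H07 (log2 0.80) had already changed sides, while 28K_085_E05 and 28K_163_D06 (log2 0.44) had not. The probes 28K_250_H07 and 28K_163_D06 were also named after their values were seen.

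A ratio does not tell which line moved, and the signals of each line were therefore followed over the stages, as log2 intensities after Aquantile normalization across the arrays. Since the rule fixes the sign of the difference between the 2 changes, these values are a description. In the first group the XinFLM signal was higher at 1 than at -1 DPA for 35 of 35 probes, with a median change of 1.53, and the change was past log2 1 for 29. XinWX was lower at 1 DPA for 29 of the 35, with a median of -0.86, and past log2 1 for 16. The changes of the 2 lines thus had opposite signs for 29 of these probes, but XinWX changed by under log2 0.5 in 10 of the 35.

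In the second group the XinFLM signal was lower at 1 than at -1 DPA for 28 of 28 probes, with a median of -1.96, and past log2 1 for 27. XinWX was higher for 15 and lower for 13, with a median of 0.18 and only 6 past log2 1. Without replicate 3 of -1 DPA the XinWX median was -0.29, so that its sign rests on that array. The switch of this group was thus mainly a change of the XinFLM signal, which moved more than XinWX in 26 of 28 probes, compared with 25 of 35 in the first group. Over all 21229 probes tested, 7.64% changed past log2 1 in XinWX and 13.5% in XinFLM, with medians of -0.01 and 0.01, 20.5% changed in opposite directions, and 59.1% changed more in XinFLM.

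**Figure D2:**
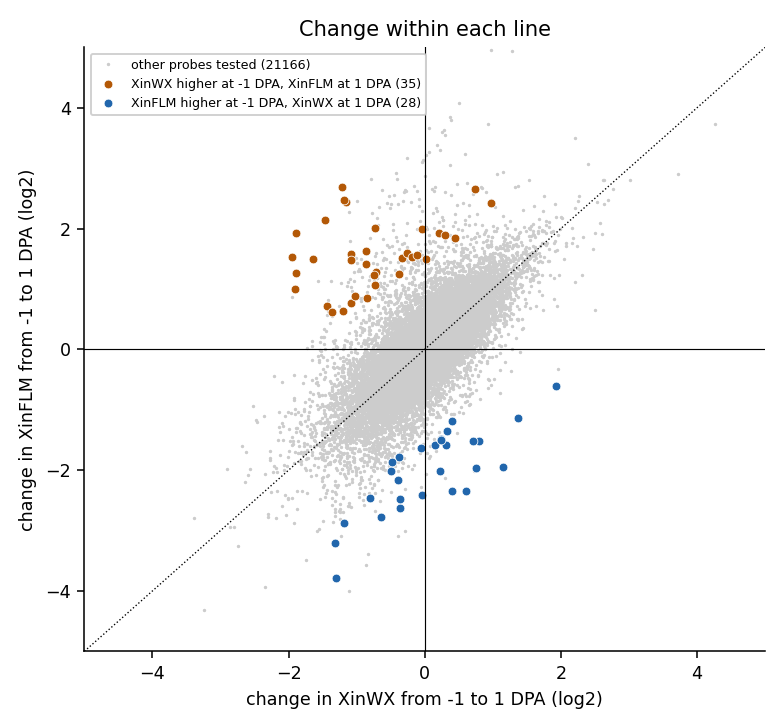
Change from -1 to 1 DPA in XinWX (x axis) and in XinFLM (y axis), both as log2 intensity, for all probes tested (grey, points beyond the axes not shown) and for both groups of switching probes (colour). The dotted line marks equal change. Switching probes lie off this line by selection; the 35 of the first group are all above 0 on the y axis, and the 28 of the second group are all below it and spread around 0 on the x axis.

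The 3 stages show the course in single probes. For 28K_231_H02 the XinWX signal was 14.09, 14.08 and 14.94 at -1 DPA, 13.78, 13.67 and 12.84 at 0 DPA, and 12.44, 12.05 and 12.94 at 1 DPA. The XinFLM signal was 12.02, 11.98 and 13.10, then 13.07, 13.03 and 12.31, and then 14.38, 13.95 and 14.56. The lines thus traded levels, with a change of -1.89 in XinWX and of 1.93 in XinFLM on the log2 scale, most of the latter (1.49) after 0 DPA.

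A different course was seen in 28K_085_E05. Its XinWX signal was 10.29, 9.69 and 10.27 at -1 DPA, was 11.76, 12.27 and 11.61 at 0 DPA and was back at 10.40, 10.36 and 10.81 at 1 DPA. Its XinFLM signal went from 9.61, 9.01 and 9.49 to 10.34, 11.04 and 10.69 and then to 10.68, 11.06 and 11.90. Both lines were higher at 0 than at -1 DPA on every array, and only XinWX came down again.

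In the second group much of the XinFLM change was in place at anthesis. For 28K_296_F10 the XinFLM signal was 12.51, 12.57 and 12.17 at -1 DPA, 10.65, 10.14 and 10.58 at 0 DPA and 10.11, 10.33 and 10.92 at 1 DPA. The difference of -1.96 was in place by 0 DPA, and the XinWX signal then went from 10.64, 10.24 and 10.76 to 11.71, 11.84 and 11.74. Over the group, the median XinFLM change was -1.17 from -1 to 0 DPA and -1.04 from 0 to 1 DPA, and the first step was the larger in 18 of 28 probes. In the first group the medians were 0.83 and 0.83, and the first step was the larger in 16 of 35.

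Where XinFLM was under 400 units above background on all 3 arrays of 1 DPA, its level there is only an upper limit. This held for 5 members, all of the second group. Among them the XinFLM signal of 28K_116_E10 was at least 9.50-fold and that of 28K_122_B10 at least 5.69-fold lower at 1 than at -1 DPA, as measured against the lowest normalized XinFLM intensity among probes of 400 units or more on each array, or the probe's own value where that was higher. With the 5 probes at these limits the group's median stayed at -1.96, and 26 in place of 27 changes were past log2 1.

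The mean signal of both lines was not itself a selection criterion, although it comes from the same spots. Its change from -1 to 1 DPA was tested in limma over 21229 probes. A probe that switches must have changed in at least 1 line, which can also move the mean. Where XinFLM changed more than XinWX, the group also fixes the direction of that move. The counts and their split by group are therefore not independent of the selection. Of the 63 members 14 (22.2%) passed by the same criteria, against 4.15% of all probes tested. The 4 that rose (1.83% over all probes) were all in the first group, and the 10 that fell (2.33%) were all in the second. For 4 of these 10, 28K_116_E10, 28K_122_B10, 28K_165_A08 and 28K_250_H07, the XinFLM level at 1 DPA is only an upper limit, and they were kept at that stage through XinWX alone, so that the count of 14 and their p-values rest in part on faint values. With only spots of 400 units in both channels, a filter chosen after seeing the data, 8 of the 54 members that could be tested passed, 2 that rose and 6 that fell, against 3.73% of 18694 probes. The median change was 0.33 in the first group and -0.88 in the second, against 0.00 over all probes tested, and the mean signal was lower at 1 DPA in 26 of the 28 probes of the second group.

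**Figure D3:**
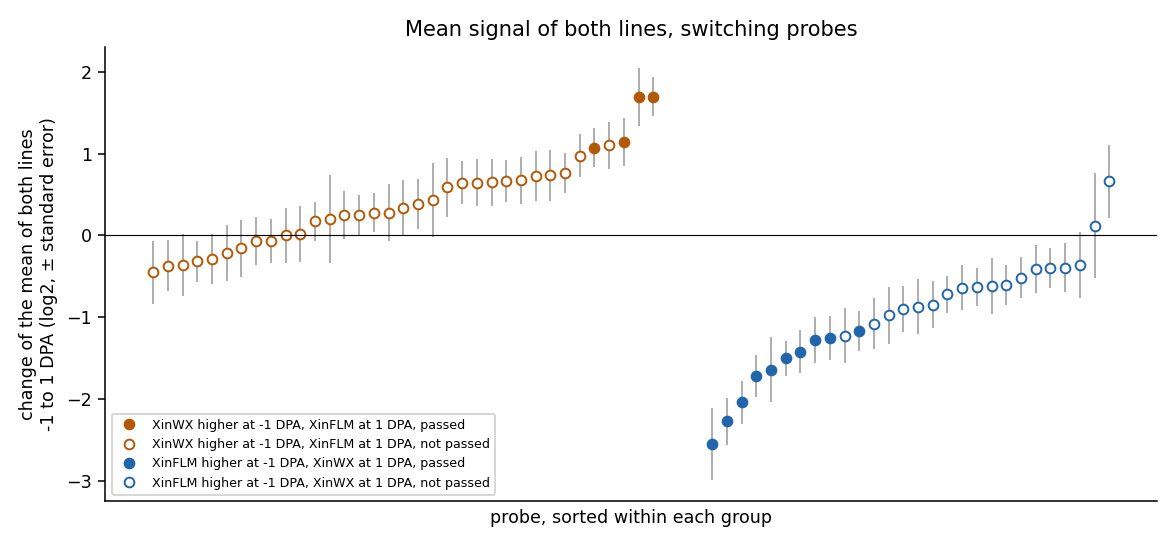
Change of the mean log2 signal of both lines from -1 to 1 DPA (y axis, bars ± standard error from limma over 9 arrays) for the 63 switching probes, sorted within each group (x axis). Filled points passed the test. All 4 filled points of the first group are above 0 and all 10 of the second are below it.

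The probes with the largest rise were 28K_209_F12 and 28K_119_G05. The mean log2 signal of 28K_209_F12 was 11.39, 11.04 and 11.03 at -1 DPA, 12.01, 12.04 and 12.22 at 0 DPA and 13.01, 12.53 and 13.00 at 1 DPA. It was higher at each stage than at the one before, with no overlap, and the rise came to 3.24-fold (log2 1.69, standard error 0.23, adjusted p = 0.00522 in limma). The rise did not pass in 1 of 21 alternative settings. As the probe nearest the limit, 28K_209_F12 left the set without replicate 2 or 3 of -1 DPA or replicate 2 of 1 DPA. It was also not chosen on the recomputed scanner ratios or on replicates 1 and 2 alone. For 28K_119_G05 the mean was 8.79, 8.53 and 9.81 at -1 DPA, 9.68, 9.58 and 10.48 at 0 DPA and 10.59, 10.67 and 10.93 at 1 DPA. Here replicate 3 was the highest array of every stage, and the rise of 3.23-fold (log2 1.69, standard error 0.35, adjusted p = 0.0250 in limma) did not pass in 6 of 19 alternative settings, 4 of which left out 1 array of -1 or 1 DPA (replicate 1 or 2). At -1 DPA its XinFLM spots were at 321.5, 273.5 and 400.5 units above background. Replicates 1 and 2 of that stage were thus kept through XinWX alone, and the rise rests in part on faint values.

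The probes with the largest fall were 28K_116_E10 and 28K_122_B10. The mean log2 signal of 28K_116_E10 was 11.85, 11.75 and 12.32 at -1 DPA, 9.98, 9.69 and 10.17 at 0 DPA and 8.17, 10.21 and 9.89 at 1 DPA. All of the later arrays were below those of -1 DPA, but at 1 DPA replicate 1 was far below the other arrays. The fitted log2 change was -2.55 (standard error 0.44, adjusted p = 0.0129 in limma, not passed without replicate 1 of -1 DPA), and with XinFLM at its limit the fall was at least 4.84-fold. For 28K_122_B10 the mean was 10.84, 11.49 and 11.61 at -1 DPA, 9.31, 8.88 and 9.72 at 0 DPA and 8.89, 9.00 and 9.25 at 1 DPA. The log2 change was -2.27 (standard error 0.29, adjusted p = 0.00420 in limma), with a fall of at least 3.77-fold when XinFLM was set to its limit.

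By step, 1 of 63 members passed between -1 and 0 DPA, against 0.189% of 22227 probes tested. It was 28K_122_B10, among 0.0630% of probes that fell, and it fell by 2.01 on the log2 scale (standard error 0.29, adjusted p = 0.0352 in limma), but it did not pass when any 1 array of -1 or 0 DPA was left out. Between 0 and 1 DPA 0 of 63 members passed in limma, against 0.0142% of 21071 probes tested, and 18 had an unadjusted p under 0.05 (16.7% over all probes). These counts depend on the arrays. With the swapped array averaged with replicate 1 as 1 sample, 0 of 63 passed from -1 to 1 DPA in limma, where 2 of 20071 probes passed in all. Without a single array the count of 14 fell to 5 (-1 DPA replicate 1), 8 (-1 DPA replicate 2) or 9 (replicates 1 and 2 of 0 DPA and of 1 DPA), while without replicate 3 of 1 DPA it was 18 from -1 to 1 DPA and 6 from 0 to 1 DPA.

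Some members rest on replicate 3. At -1 DPA this replicate differed from the mean of the other replicates by over log2 1 in 11 of 63 members, which contributes to the selection, against 3.62% of the bright probes. At 0 DPA it did so in 10 of 63, against 1.64%, and at 1 DPA in 7, against 5.13%. For 8 members the difference was over log2 1 at both -1 and 0 DPA. Of these, 28K_163_E09 and 28K_251_C05 were named by rule, and the others are named after their values were seen.

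In 28K_163_E09 the ratios were -0.24, 0.21 and -3.0 at -1 DPA, 0.80, 0.94 and -1.41 at 0 DPA, and 1.32, 1.76 and 1.09 at 1 DPA. On replicates 1 and 2 the lines were alike at -1 DPA and XinWX was higher at 0 DPA, while on replicate 3 XinFLM was higher at both stages. The probe 28K_251_C05 had -0.15, 0.23 and -2.61, then 0.68, 0.94 and -1.29, and then 1.53, 1.53 and 1.02. Its arrays divided in the same manner, but its XinFLM spots on replicate 3 of -1 and 0 DPA were saturated, so that the ratios of -2.61 and -1.29 rest on XinFLM levels that are only lower limits.

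Together with 28K_297_B04, 28K_063_H01 and 28K_243_A06, these formed a set of 5 second-group probes with one pattern. Their means over replicates 1 and 2 lay between -0.15 and 0.04 at -1 DPA and between 0.61 and 0.87 at 0 DPA, while replicate 3 lay between -3.0 and -2.19 and between -1.41 and -0.95. At 1 DPA all 3 arrays favoured XinWX in all 5. The size of the ratio at -1 DPA in these probes came from 1 array of 3.

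Another 3 probes, all of the first group, had replicate 3 on different sides at the 2 stages. In 28K_123_E10 the ratios were -0.42, -0.08 and 3.24 at -1 DPA, 1.83, 1.80 and -0.95 at 0 DPA, and -1.67, -1.40 and -2.94 at 1 DPA. On replicates 1 and 2 XinWX was higher at 0 DPA only, and on replicate 3 at -1 DPA only. In 28K_111_H12 and 28K_244_C06 replicates 1 and 2 favoured XinWX at both stages, weakly at -1 DPA (0.12 and 0.31, and 0.18 and 0.35), while replicate 3 was at 2.88 and 2.50 at -1 DPA and at -0.69 and -0.53 at 0 DPA. The plot of replicate 3 against the other replicates shows both sets.

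**Figure D4:**
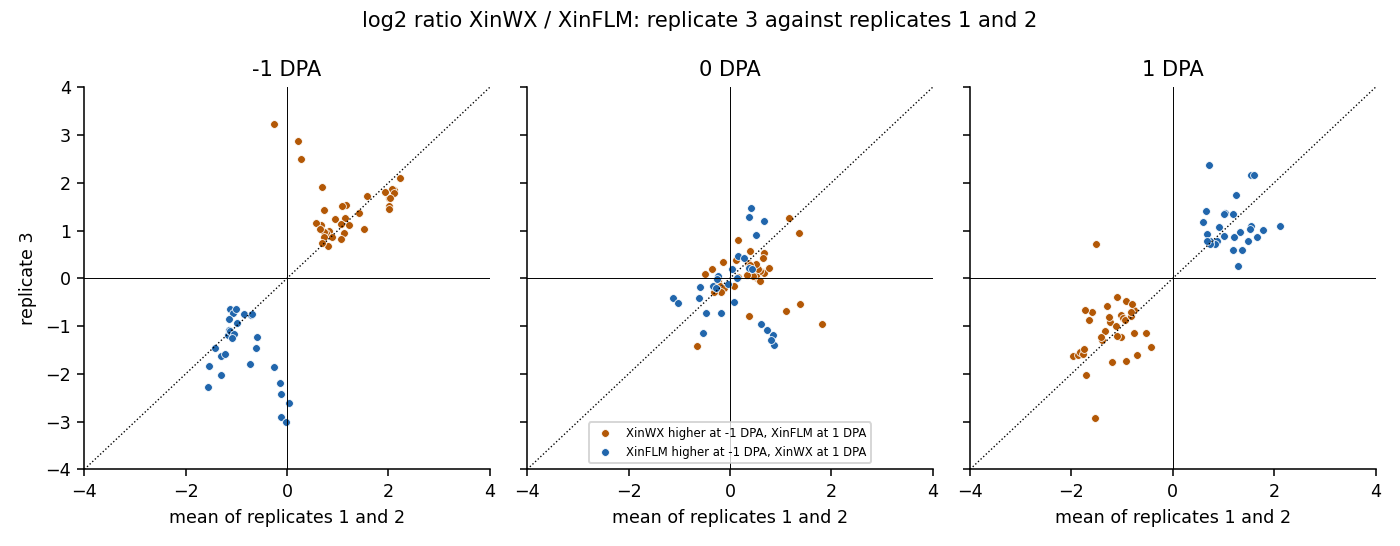
Log2 ratio of XinWX over XinFLM on replicate 3 (y axis) against the mean of replicates 1 and 2 (x axis) for the 63 switching probes at -1, 0 and 1 DPA, coloured by group. The dotted line marks equal values. At -1 DPA 11 probes lie over log2 1 from the line and at 0 DPA 10 do, among them 5 of the second group near 0 on the x axis and under -2 on the y axis at -1 DPA.

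Most members held without any one array. When each of the 6 arrays of -1 and 1 DPA was left out in turn, 37 of the 63 met the selection every time, 21 of the first group and 16 of the second. The fewest, 46, did so without replicate 3 of -1 DPA, and between 57 and 63 did so without each of the others. All 6 arrays had the sign of their stage's mean in 58 members. The exceptions were 28K_163_E09, 28K_251_C05, 28K_063_H01, 28K_123_E10 and 28K_206_E10. The last, named after its values were seen, had ratios of 0.68, -3.72 and 0.71 at 1 DPA, so that it changed sides on the swapped array alone. Replicates 1 and 2 alone would have chosen 43 of the 63 and replicate 3 alone 49, with 32 chosen by both.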

How the data were processed

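Ovule RNA of XinWX and of XinFLM was hybridized together on 9 arrays, with 3 arrays per stage (-1, 0 and 1 DPA). The members, the tests and the alternatives were chosen with earlier results of these data known. Per the labels and the methods, XinWX was in Cy3 on replicates 1 and 3 and in Cy5 on replicate 2.

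The files deposited from the scanner give spot and local background intensities per channel, not normalized, and a flag score set by the authors' image software, used only in an alternative. A table of log2 ratios (Cy5 over Cy3) was normalized by the authors within arrays with LOWESS, and the swap is not turned in it. Their medians lay between -0.01 and 0.01, which shows their centring. They correlated with the ratios computed here at r = 0.944 to 0.998 over kept spots, which shows their direction but not their scale. In their processing notes the submitters list R 2.12.2 and limma 3.4.5. No column of other samples was present.

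The intensities of 29184 probe spots (1 pair averaged, 29183 probes) were corrected with normexp (offset 50) and loess (span 0.3, 4 iterations) in limma 3.58.1 under R 4.3.3. Spots under 400 units in both channels had weight 0, and 20544 to 23884 probes were kept per array. Ratios at 0 DPA were fitted over 9 arrays with 1 coefficient per stage, for probes kept on at least 2 arrays of the stage. Mean signals of both lines and the signal of each line used Aquantile values, including faint spots, for probes kept on at least 2 arrays at both stages. The adjustment of p-values (Benjamini-Hochberg) covered all probes tested. The fits were also run on simulated data with added changes of known size. The noise there was independent between arrays, which may not hold for these data, so that this checks only the working of the fits. Summaries and figures used Python 3.11.15, pandas 2.3.3 and matplotlib 3.10.9.

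Probes were named by rule: per group the 2 with the largest smaller mean, the 2 brightest and the 1 nearest the limit, and per test the 2 with the largest change each way among those that passed. Alternatives changed the background correction, the filter, the normalization, the dye, block and averaging of arrays, the arrays used, the FDR rule and the selection limits.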

Additional observations from a re-analysis of the deposited data

How the results depend on the processing

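The set depends on its limits. A limit of 1 left 27 probes, a limit of 0.5 gave 184, no filter on faint spots gave 108 and, chosen after seeing the data, replicate 3 alone gave 243, while leaving out 1 array gave 54 to 78. Ratios recomputed from the scanner intensities chose 56, of which 55 were members. The count at 0 DPA (1 of 41) was 8 by FDR alone, 2 under scale normalization between arrays and 1 to 2 without 1 array. The count of mean signals changed from -1 to 1 DPA (14) was 0 with the swapped array averaged with replicate 1, 6 with only the arrays of both stages, 8 of 54 with only spots of 400 units in both channels and 5 to 18 without 1 array. From -1 to 0 DPA (1) it was 0 under plain background subtraction, no filter on faint spots, a dye term, the replicate block or either averaging, 3 with only the arrays of both stages, and 0 to 2 without 1 array. From 0 to 1 DPA (0) it was 2 with the swapped array averaged with replicate 3 and 0 to 6 without 1 array. The cause was not tested. No value past its threshold changed direction, but the untested XinWX median of the second group changed sign, to -0.29 without replicate 3 of -1 DPA. Of 231 values, 189 were counted as unchanged in direction and side of the threshold. This count includes that median, which has no threshold, in spite of its change of sign.

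The replicate numbers were not taken to pair the arrays, since no correlation held over all stages. Deviations of the mean signal from the stage means correlated between same-numbered arrays of -1 and 0 DPA at 0.0975, 0.162 and 0.414, with 1 value under 0.1, while those of the ratios were 0.141, 0.261 and 0.129, all over 0.1. Between the other stages no value of either was over 0.1. With the replicate block the count was 1 at 0 DPA, 15 from -1 to 1 DPA, 0 from -1 to 0 DPA and 0 from 0 to 1 DPA. The scanner files used here give no slide or scan date, and a fit with these as a block was not run. Faint signal limits 15 members, which were not at 400 units in both channels on all 9 arrays.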

Other observations

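The 63 probes lay in 35 of the 48 blocks of the array, with at most 4 in a block, and 2 pairs sat on adjacent spots. The neighbours 28K_289_D05 and 28K_289_D11 both went from XinFLM to XinWX, with mean ratios of -1.65 and -1.34 at -1 DPA and 1.00 and 1.14 at 1 DPA. The neighbours 28K_163_E03 and 28K_163_E09 went in opposite directions, with 0.99 and -1.01 at -1 DPA and -0.73 and 1.39 at 1 DPA. Whether probes of a pair come from the same gene could not be read from the tables used here.

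The 3 probes whose 0 DPA mean lay outside the range of the other stages were 28K_085_E05, 28K_147_H01 and 28K_257_G02. The ratios of 28K_147_H01 at 0 DPA were 1.18, 1.14 and 1.26, all above those of -1 DPA (0.78, 0.67 and 0.98), and by 1 DPA they were -1.35, -1.25 and -0.58. Its XinWX signal was 1.37 higher at 0 than at -1 DPA and 1.56 lower at 1 than at 0 DPA on the log2 scale, a course like that of 28K_085_E05. The ratios of 28K_257_G02 were -1.02, -1.03 and -0.53 at 0 DPA, against -0.64, -0.73 and -0.75 at -1 DPA, which overlap. Its XinFLM signal changed by -0.44 up to 0 DPA and by -1.42 after it.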
